A study of Schizosaccharomyces pombe with 12 samples.

Results

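Genes of the mitochondrial ribosome were followed in fission yeast, Schizosaccharomyces pombe, through a shift to high temperature in cells with a normal or an impaired cohesin loader. Members were all genes whose symbol in the array's probe annotation starts with mrpl, mrps, mrp or rsm and ends in a number. The rule found 47 genes among the 2896 genes measured, each read by 1 probe set, and used no measured value. The RefSeq table of S. pombe (assembly ASM294v3) holds 60 symbols of this form, and those not read by a named probe set were not analysed here. Of the 47, 27 belong to the large subunit and 19 to the small subunit. The remaining one, rsm1, matches by its letters alone: in fission yeast it is known as a factor of mRNA export from the nucleus, so it was counted under the rule and its values are given apart. The genes mrpl11 and mrps5 are named mrp11 and mrp5 in RefSeq.

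Mitochondria carry their own ribosomes, which translate the few membrane proteins encoded by mitochondrial DNA, nearly all of them parts of the respiratory chain and of ATP synthase. In fission yeast almost every protein of these ribosomes is encoded in the nucleus, made in the cytosol and imported. Some have a counterpart in the bacterial ribosome, others occur only in mitochondria; by the budding yeast genes of the same name, 32 of the members are of the first kind and 13 of the second.

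The series holds 12 arrays of total RNA from h- cells, in 4 groups of 3 independent cultures: mis4+ and mis4-367 cells, each at 25 °C and after 2 h at 37 °C. Mis4 loads cohesin, the complex that holds sister chromatids together, onto DNA, and mis4-367 is a thermosensitive allele. All cells, controls included, carried the plasmid ura4+-pREP2-res1, which makes a C-terminal fragment of Res1 when thiamine is withdrawn. This fragment takes up the transcription factor Cdc10, and after 7 doublings without thiamine at 25 °C the cells stood in G1, the phase before DNA replication. Whether arrays of the same number at 25 °C and 37 °C come from the same inoculate is not stated. No group was left unarrested, and each genotype is 1 strain. Median intensities over all genes were 394.2 to 433.1, the highest on replicate 3 of mis4+ at 37 °C. They follow the authors' normalization, which brings arrays together, so they do not test the raw brightness. The mRNA of mis4 at 37 °C had a log2 intensity of 8.33 in the mis4+ group (SD 0.08 over 3 arrays) and of 8.26 in the mutant (SD 0.13), a level that does not test the allele. Of markers of the h- mating type, the M-factor genes mfm1, mfm2 and mfm3 ranged over 8.46 to 11.36, 11.46 to 11.82 and 6.16 to 7.71 on the 12 arrays, and mam1 and mam2 over 7.77 to 9.27 and 8.10 to 8.64. The genes map2 and map3 of the opposite type ranged over 5.74 to 6.06 and 5.99 to 6.64, so mfm3 and map3 overlapped.

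One array stood apart. On replicate 3 of mis4+ at 37 °C the differences of the members from the average of its 2 fellow arrays had an SD of 0.176, while the same measure was 0.048 to 0.129 for the other 11 arrays. That array held the highest of the 3 mis4+ values at 37 °C for mrp17 (7.03), mrpl24 (7.54), mrpl19 (9.68), mrpl11 (10.73) and mrpl40 (9.30). For rsm23 (10.27), mrpl3 (8.65) and mrpl31 (9.45) it lay close to the level before the shift. Results are therefore also given without it. By the same measure the arrays at 25 °C lay at 0.048 to 0.072 and those at 37 °C at 0.107 to 0.176.

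Levels below are log2 intensities after the authors' RMA normalization. A gene is said to have risen, fallen or changed where limma's adjusted p over the 2896 genes was under 0.05. All 47 members lay above the background level of 3.42 in every group, the dimmest being mrp17 with a mean over 12 arrays of 6.59 and the brightest mrpl11 with 10.33. Brightness also depends on the probes, so levels of different genes are not set against each other. Within a group the arrays lay close together, with a median SD over members and groups of 0.060. Arrays of whole cultures cannot tell fewer cells making an mRNA from less of it per cell.

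**Figure D1:**
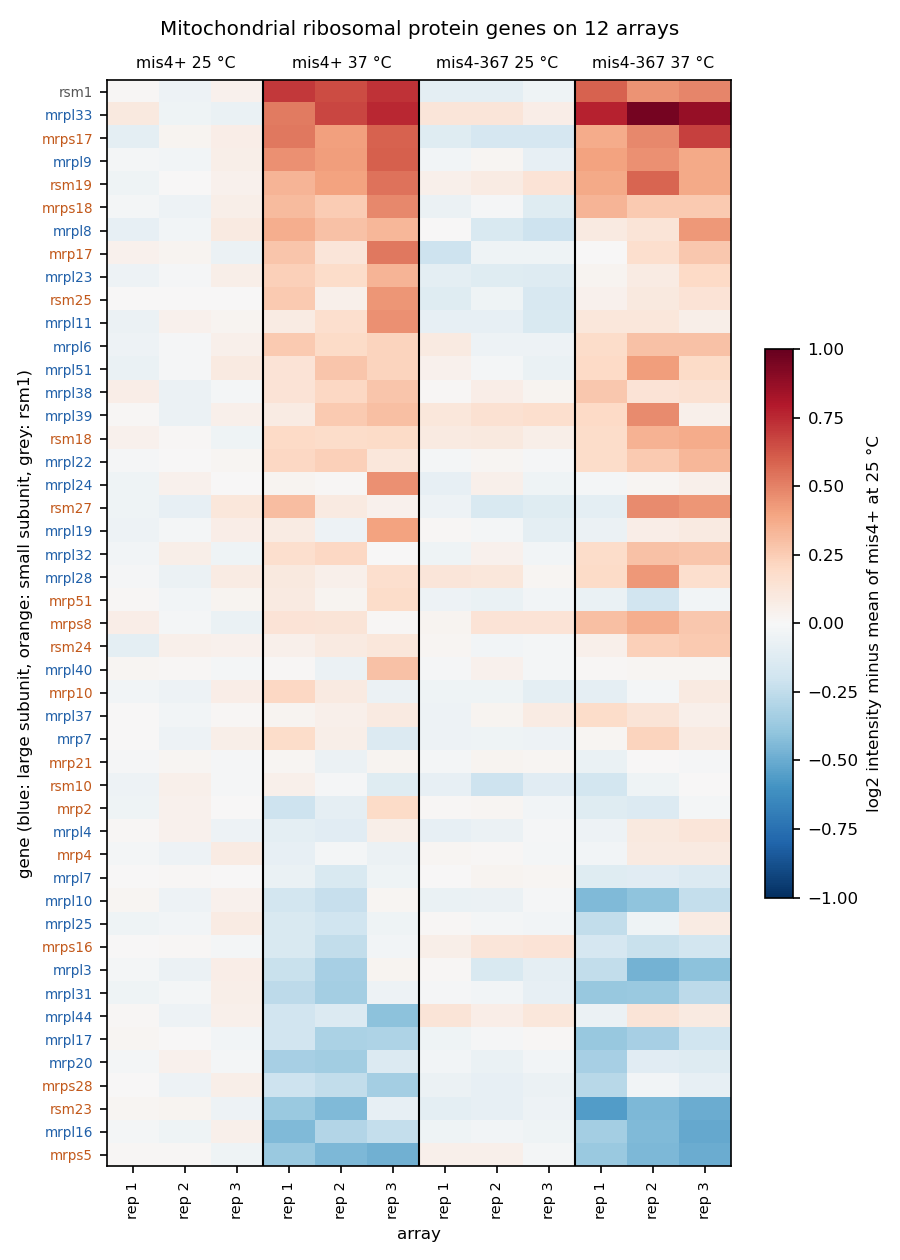
Each row is 1 of the 47 genes and each column 1 array; colour gives the log2 intensity minus the mean of the 3 mis4+ arrays at 25 °C, and rows are ordered by the change in mis4+ after the shift. The arrays at 25 °C are nearly uniform in both strains, and those at 37 °C run from red at rsm1, mrpl33 and mrps17 to blue at rsm23, mrpl16 and mrps5.

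The shift to 37 °C moved mitochondrial ribosomal protein genes in both directions, mostly by small amounts. In mis4+ cells 16 of the 47 rose, 9 fell and 22 did not pass, where 55.3% of all genes tested were called, 33.4% as higher and 21.9% as lower. The 16 are 34% of the members and the 9 are 19.1%, so both shares were near those of all genes. The median change of the members was 0.10 on the log2 scale, against 0.04 for all genes, and 2 members moved by more than 1.5-fold, or 4.26% beside 10.2% of all genes. Without replicate 3 at 37 °C, 17 rose and 13 fell. After quantile normalization over the S. pombe genes, 15 rose and 14 fell, and after re-centring each array on their median 16 rose and 12 fell. Leaving out rsm1, 15 rose and 9 fell.

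In mis4-367 cells 21 members rose, 9 fell and 17 did not pass, where 56.4% of all genes were called, 33.4% as higher and 23% as lower. The share that rose was 44.7% of the members and the share that fell 19.1%, at a median change of 0.10 against 0.04 for all genes. The count of members that rose was 15 to 19 when any 1 of the 6 arrays of this strain was left out, and 9 fell each time. After quantile normalization 18 rose and 11 fell.

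Among large-subunit genes the highest rise was that of mrpl33. It stood at 7.20, 7.06 and 7.03 in mis4+ at 25 °C and at 7.62, 7.77 and 7.85 after the shift. In mis4-367 its values were 7.22, 7.22 and 7.17 before and 7.87, 8.06 and 7.97 after. Every array at 37 °C thus lay above every array at 25 °C, in either strain. The rise was 0.65 ± 0.07 (SE) or 1.57-fold in mis4+ (limma, adjusted p = 9.13e-06) and 0.76 ± 0.07 or 1.69-fold in mis4-367 (adjusted p = 2.23e-06).

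The large-subunit gene mrpl9, whose bacterial counterpart is an early-assembling protein of the large subunit, rose from 9.14, 9.13 and 9.22 to 9.62, 9.58 and 9.76 in mis4+. In mis4-367 it went from 9.13, 9.18 and 9.08 to 9.56, 9.62 and 9.54. These groups did not overlap, and the rises were 0.49 ± 0.05 (SE, limma adjusted p = 1.09e-05) and 0.45 ± 0.05 (adjusted p = 2.22e-05). Another 7 large-subunit genes rose in both strains, by less: mrpl8, mrpl23, mrpl11, mrpl6, mrpl51, mrpl38 and mrpl22, with changes of 0.18 to 0.33 in mis4+ and 0.15 to 0.34 in mis4-367. Of these, mrpl11 did not pass in mis4+ without replicate 1 at 25 °C (adjusted p = 0.0834). Without replicate 3 at 37 °C its rise in mis4+ was 0.12 in place of 0.24 (adjusted p = 0.0363). In mis4-367 mrpl11 passed only narrowly (limma, adjusted p = 0.0489), and that call was not followed through the alternatives.

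Small-subunit genes were led by mrps17, which has a bacterial counterpart that binds ribosomal RNA. Its values in mis4+ were 7.95, 8.08 and 8.12 before the shift and 8.58, 8.46 and 8.64 after it. In mis4-367 they were 7.93, 7.88 and 7.88 before and 8.42, 8.53 and 8.73 after. The change was 0.51 ± 0.08 (SE) or 1.43-fold in mis4+ (limma, adjusted p = 0.000117) and 0.66 ± 0.08 or 1.58-fold in mis4-367 (adjusted p = 1.26e-05), and no array at 37 °C overlapped the arrays at 25 °C.

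The next in mis4+ was rsm19, from 8.06, 8.10 and 8.14 to 8.44, 8.50 and 8.64 in mis4+ and from 8.15, 8.18 and 8.24 to 8.48, 8.68 and 8.48 in mis4-367. Its rise was 0.42 ± 0.06 (SE, limma adjusted p = 0.000157) and 0.35 ± 0.06 (adjusted p = 0.000534), again with no overlap between temperatures. The genes mrps18 (0.35 in mis4+, 0.35 in mis4-367), mrp17 (0.31 and 0.24), rsm25 (0.25 and 0.20) and rsm18 (0.19 and 0.21) also rose in both strains. In mis4-367 mrp17 and rsm25 passed only narrowly (limma, adjusted p = 0.0484 and 0.0454), and these calls were not followed through the alternatives. Without replicate 3 at 37 °C the rise of rsm25 in mis4+ was 0.15 (adjusted p = 0.0493), and its call was lost when the 2 compared groups were fitted alone (0.064). The call of mrp17 in mis4+ was lost without replicate 3 at 37 °C (0.20, adjusted p = 0.0584), without replicate 3 at 25 °C (0.0595) and after quantile normalization (0.152).

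**Figure D2:**
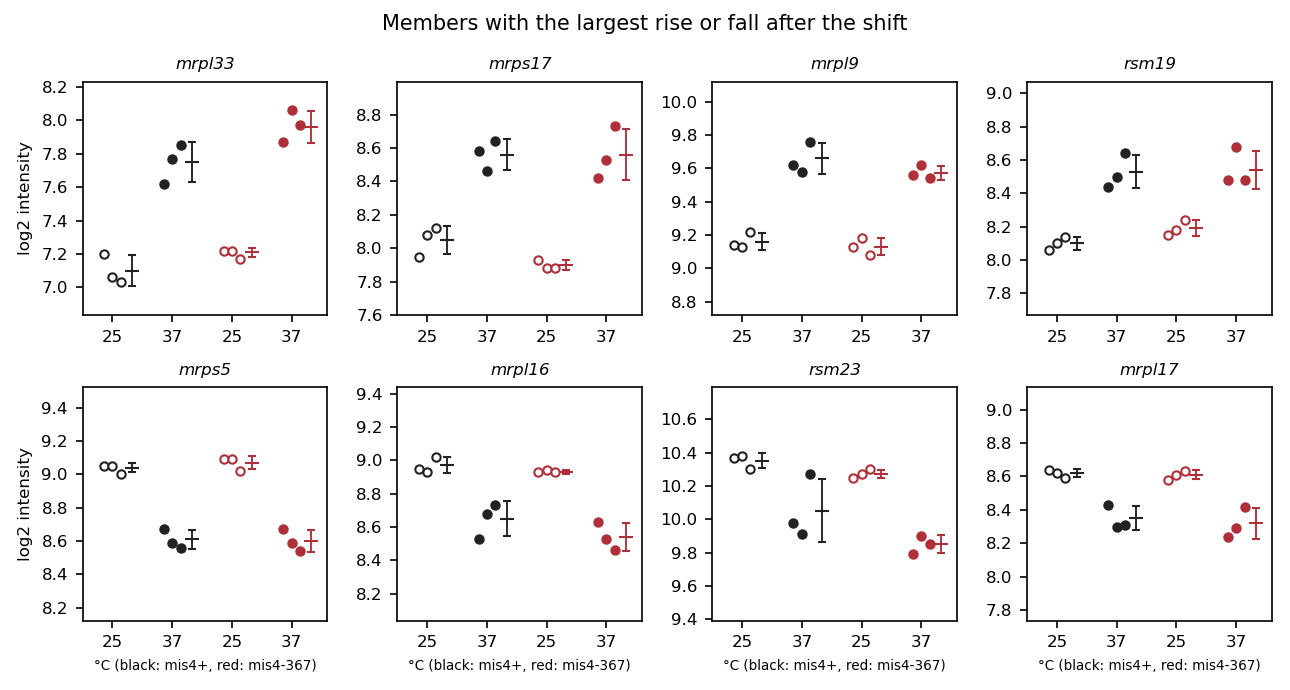
Log2 intensities of 4 members that rose (upper row) and 4 that fell (lower row), by temperature and strain; points are single arrays, and the bar beside them the mean ± SD of 3. In every panel the filled points at 37 °C lie clear of the open points at 25 °C of the same strain, with rsm23 of mis4+ replicate 3 (10.27) the nearest. The panels show members chosen for a large change, so this separation adds no support.

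The deepest fall was that of mrps5, a small-subunit gene whose bacterial counterpart takes part in decoding accuracy. It stood at 9.05, 9.05 and 9.0 in mis4+ at 25 °C and at 8.67, 8.59 and 8.56 at 37 °C. In mis4-367 it went from 9.09, 9.09 and 9.02 to 8.67, 8.59 and 8.54. Both strains thus reached the same range, with changes of -0.43 ± 0.05 (SE, limma adjusted p = 1.31e-05) and -0.47 ± 0.05 (adjusted p = 6.12e-06), or 1.35-fold and 1.38-fold.

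The large-subunit gene mrpl16 fell from 8.95, 8.93 and 9.02 to 8.53, 8.68 and 8.73 in mis4+ and from 8.93, 8.94 and 8.93 to 8.63, 8.53 and 8.46 in mis4-367. The changes were -0.32 ± 0.06 (SE, limma adjusted p = 0.000588) and -0.39 ± 0.06 (adjusted p = 0.000121), with no overlap of the temperatures. For rsm23, which encodes the GTP-binding small-subunit protein related to human DAP3, the values of mis4+ were 10.37, 10.38 and 10.30 before and 9.98, 9.91 and 10.27 after. In mis4-367 they were 10.25, 10.27 and 10.30 before and 9.79, 9.90 and 9.85 after, so its arrays at 37 °C were tighter there. The changes of rsm23 were -0.30 ± 0.08 (SE, limma adjusted p = 0.00542) and -0.42 ± 0.08 (adjusted p = 0.000465), and in mis4+ -0.40 without replicate 3 at 37 °C (adjusted p = 1.97e-05).

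Also lower after the shift in both strains were the large-subunit genes mrpl17 (-0.27 in mis4+, -0.29 in mis4-367) and mrpl31 (-0.22 and -0.30) and the small-subunit gene mrps16 (-0.14 and -0.29). In mis4+ the call of mrpl31 was lost without replicate 3 at 25 °C (adjusted p = 0.0678) or replicate 1 (0.0553) or 2 (0.0704) at 37 °C. That of mrps16 in mis4+ was lost without any 1 of the arrays except replicate 3 at 37 °C (adjusted p from 0.0726 to 0.173, and -0.08 without replicate 2 at 37 °C), and with the culture as a block (0.0812), and without that array the adjusted p was 0.00202, with a change of -0.20. Calls of mrpl31 and mrps16 in mis4-367 held with each array of that strain left out.

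Across the members the changes of both strains ran in parallel. The change had the same sign in 43 of 47, and no member rose in one strain and fell in the other. All 16 that rose in mis4+ also rose in mis4-367, which is 76.2% of the 21 there. Of these, mrpl11, mrp17 and rsm25 passed only narrowly in mis4-367 (limma, adjusted p = 0.0489, 0.0484 and 0.0454). Of the 9 that fell in each strain 6 were shared, or 66.7% of each. The changes in the strains, which share no array, correlated across the 47 genes with r = 0.92 (0.92 without rsm1), against 0.96 over all 2896 genes. The parallel course was thus not particular to the members. Shared signs and calls were not counted over all genes. Genes of 1 array set are not independent, so these are descriptions.

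**Figure D3:**
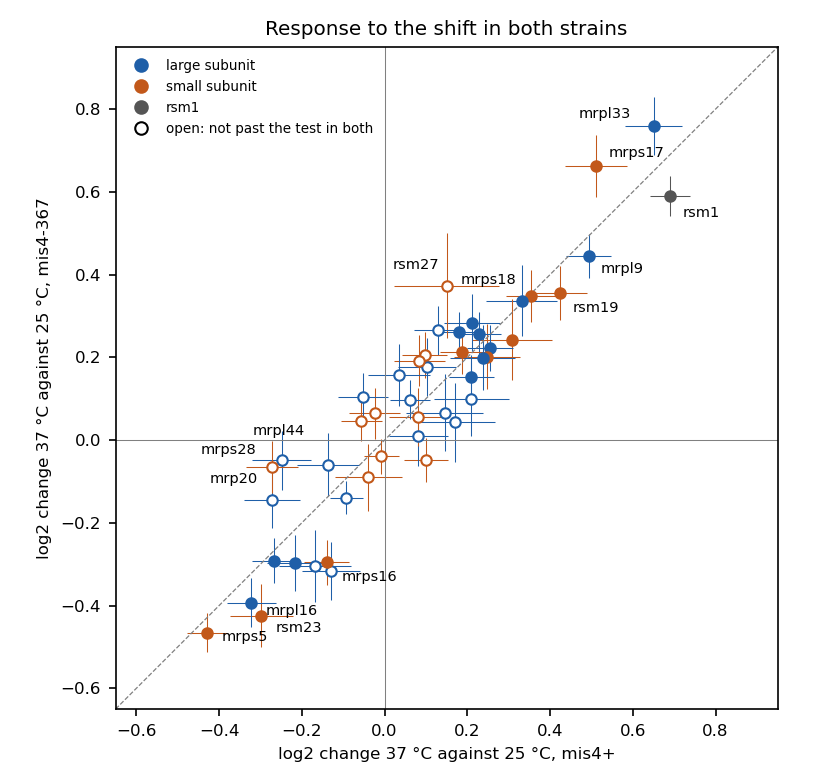
Log2 change at 37 °C against 25 °C in mis4+ (x axis) and mis4-367 (y axis) for the 47 genes, with standard errors; filled points passed the test in both strains. Points follow the dashed line of equal change, from mrps5 at -0.43 and -0.47 to mrpl33 at 0.65 and 0.76.

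The members past the test in 1 strain alone were 3 in mis4+ and 8 in mis4-367. Such counts were not taken over all genes, so 3 against 8 cannot be read as a trait of the members. In mis4+ the 3 were falls of mrps28 (-0.27), mrp20 (-0.27) and mrpl44 (-0.25), while the changes in mis4-367 were -0.06, -0.15 and -0.05. In mis4-367 the 8 were rises of rsm27 (0.37), mrpl32 (0.27), mrps8 (0.21), rsm24 (0.19) and mrpl28 (0.18) and falls of mrpl10 (-0.32), mrpl3 (-0.31) and mrpl7 (-0.14). Changes of these 8 in mis4+ had the same direction, at 0.15, 0.13, 0.10, 0.08, 0.10, -0.13, -0.17 and -0.09 in that order. The rise of mrpl28 in mis4-367 passed only narrowly (limma, adjusted p = 0.0468). The rise of rsm27 rested on 2 arrays: at 37 °C mis4-367 stood at 7.96, 8.53 and 8.50, and the first lies within its values of 8.01, 7.91 and 7.94 at 25 °C. Its call was lost without replicate 2 or 3 at 25 °C (adjusted p = 0.0699 and 0.0597) or at 37 °C (0.113 and 0.104).

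The remaining 14 members passed in neither strain, a count that was not taken over all genes. They were mrpl4, mrpl19, mrpl24, mrpl25, mrpl37, mrpl39, mrpl40, mrp7, mrp2, mrp4, mrp10, mrp21, mrp51 and rsm10. In mis4+ mrp21 had the value nearest 0 of these, at 9.03, 9.06 and 9.03 in mis4+ at 25 °C and 9.06, 8.98 and 9.07 at 37 °C, a change of -0.01 (95% interval of the fit from -0.10 to 0.08).

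Whether the response differed between the strains was tested directly as the change in mis4-367 minus that in mis4+. No member passed in limma, beside 0% of all genes, and 1 member, mrps28, had an unadjusted p under 0.05. The 5 members farthest from 0 were those of rsm27 (0.22), mrps28 (0.21), mrpl44 (0.20), mrpl10 (-0.19) and mrpl4 (0.16), with adjusted p of 0.824 to 0.840. Intervals remained wide next to these sizes: that of mrps28 ran from 0.02 to 0.40 and that of mrpl10 from -0.40 to 0.03 (95%). Without replicate 3 of mis4+ at 37 °C the differences of mrpl44 and mrpl10 were 0.12 and -0.11. That of rsm27 was 0.41, 0.12 and 0.14 without replicates 1, 2 and 3 of mis4-367 at 37 °C.

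Before the shift the strains were close. At 25 °C no member differed in limma's adjusted test and none had an unadjusted p under 0.05, beside 0.622% of all genes that were called. The median difference, mis4-367 minus mis4+, was -0.02 for the members and -0.03 for all genes. The 5 members farthest apart were mrps17 (-0.15), mrpl39 (0.14), rsm10 (-0.13), mrpl8 (-0.12) and mrpl23 (-0.12), with adjusted p of 0.440 to 0.647. That of mrpl8 was -0.07 without replicate 3 of either strain. For mrps17 the interval of the difference ran from -0.32 to 0.01 (95%). In a limma fit of the arrays at 25 °C alone none passed either. The adjusted p there was 0.0742 for mrpl39, 0.0955 for mrpl23 and 0.101 for mrps17.

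At 37 °C, where Mis4-367 is impaired, 4 of the 47 members differed between the strains, 2 higher and 2 lower in mis4-367, and 43 did not pass. The share of 8.51% lies next to 7.18% of all genes, of which 1.73% were higher and 5.46% lower. Their median was -0.02 and that of all genes -0.05. Each of the 4 differences was at most 1.23-fold.

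The large-subunit gene mrpl44 stood at 7.16, 7.21 and 6.94 in mis4+ and at 7.29, 7.48 and 7.44 in mis4-367 at 37 °C. The strains did not overlap, and mis4-367 was higher by 0.30 ± 0.07 (SE, limma adjusted p = 0.0337). Before the shift its values were 7.36, 7.30 and 7.40 in mis4+ and 7.48, 7.42 and 7.46 in mis4-367. The strains did not overlap there either. The lowest of all 12 values, 6.94, is that of the array of mis4+ that stood apart, and without it the difference was 0.22 (adjusted p = 0.0575).

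A small-subunit gene, mrps8, stood at 8.37, 8.36 and 8.24 in mis4+ and at 8.53, 8.59 and 8.50 in mis4-367 at 37 °C. The difference was 0.22 ± 0.06 (SE, limma adjusted p = 0.0409), without overlap, and 0.18 without replicate 3 of mis4+ (adjusted p = 0.0841). In mis4-367 lower values were found for mrp51, whose budding yeast counterpart acts in the translation of mitochondrially encoded mRNAs. It had 8.09, 8.03 and 8.18 in mis4+ and 7.93, 7.81 and 7.97 in mis4-367, a difference of -0.20 ± 0.05 (SE, limma adjusted p = 0.0428). Without replicate 3 of mis4+ this was -0.16 (adjusted p = 0.0862).

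The mRNA export gene rsm1 showed the largest response to the shift of the 47 in mis4+ and the other difference between strains. It rose from 7.51, 7.45 and 7.54 to 8.21, 8.15 and 8.22 in mis4+, by 0.69 ± 0.05 (SE) or 1.61-fold (limma, adjusted p = 2.58e-07). In mis4-367 it rose from 7.40, 7.40 and 7.46 to 8.09, 7.95 and 7.99, by 0.59 ± 0.05 or 1.51-fold (adjusted p = 8.32e-07). At 37 °C mis4-367 was lower, with a difference of -0.18 ± 0.05 (SE, limma adjusted p = 0.0442), which was -0.17 without replicate 3 of mis4+ (adjusted p = 0.0807).

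**Figure D4:**
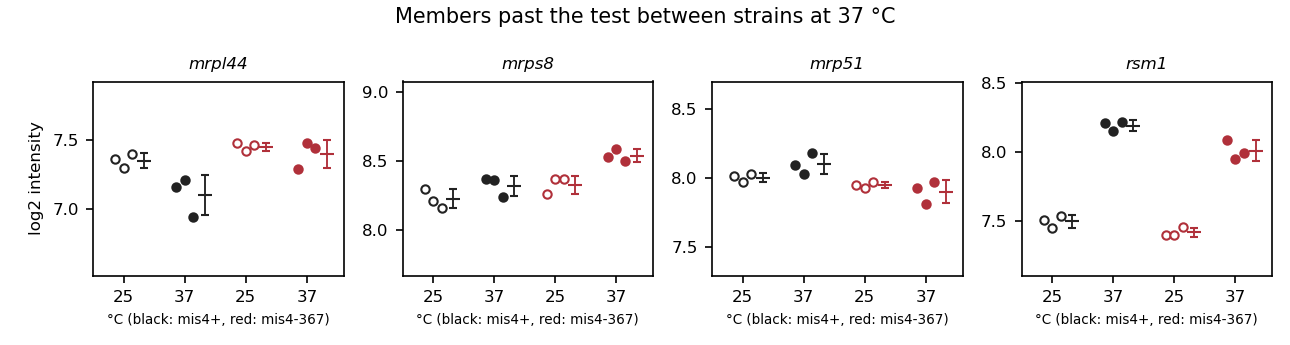
Log2 intensities of the 4 members past the test between strains at 37 °C, by temperature and strain; points are single arrays, and the bar beside them the mean ± SD of 3. At 37 °C the red and black points do not overlap in any panel, and the distances are 0.30, 0.22, -0.20 and -0.18 for mrpl44, mrps8, mrp51 and rsm1. The panels were chosen by that test, so the lack of overlap adds no support. For mrpl44 the strains were also apart at 25 °C.

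These 4 calls between strains at 37 °C were fragile. Without replicate 3 of mis4+ none of the 47 passed, without replicate 2 of mis4-367 none, and without replicate 3 of mis4-367 1 was lower and none higher. Leaving out replicate 2 of mis4+ gave 2 higher and 7 lower, leaving out its replicate 1 gave 2 and 0, and leaving out replicate 1 of mis4-367 gave 2 and 1. A fit of the 6 arrays at 37 °C alone called none. The direction also moved with the scaling: 5 were higher and 0 lower after quantile normalization, and re-centring 3 and 0. Other members far from 0 were mrpl10, at 8.31, 8.26 and 8.51 in mis4+ and 8.05, 8.09 and 8.25 in mis4-367 (-0.23, adjusted p = 0.0654), mrpl33 (0.22, adjusted p = 0.0731) and mrpl3 (-0.21, adjusted p = 0.136). The difference of mrpl3 was -0.11 without replicate 3 of mis4+ (adjusted p = 0.382) and passed without its replicate 2, at -0.28 (0.0413). That of mrpl10 passed without replicate 2 of mis4+ (adjusted p = 0.0252), without replicate 3 of mis4-367 (0.0492) and with the replicate number as a block (0.034). After quantile normalization mrpl33 passed, with 0.29 (adjusted p = 0.0223).

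The counts were also taken by subunit. In mis4+ 9 of 27 large-subunit genes rose and 5 fell, with a median change of 0.10, and 6 of 19 small-subunit genes rose and 4 fell, with a median of 0.08. These are 33.3% and 18.5% of the large and 31.6% and 21.1% of the small subunit, near the 33.4% and 21.9% of all genes. In mis4-367 the counts were 11 and 6 for the large subunit (median 0.10) and 9 and 3 for the small subunit (median 0.065). The shares there were 40.7% and 22.2%, and 47.4% and 15.8%, beside 33.4% and 23% of all genes. Of the 32 genes with a bacterial counterpart 13 rose and 5 fell in mis4+ (median 0.14), and of the 13 found only in mitochondria 2 rose and 4 fell (median 0.06). These are 40.6% and 15.6% of the former and 15.4% and 30.8% of the latter. In mis4-367 these counts were 15 and 5 (median 0.13) and 5 and 4 (median 0.06), or 46.9% and 15.6%, and 38.5% and 30.8%. Differences between these groups of genes were not tested. By position, 17 members lie on chromosome I, 21 on II and 9 on III. These are 36.2%, 44.7% and 19.1% of the members, beside 44.8%, 38% and 17% of all genes. Within 5 protein-coding genes of each other lie 3 pairs, a number that was not compared with other sets of genes. Of these pairs, mrpl11 and rsm19 both rose in mis4+, while mrp10 with mrp4 and mrpl28 with mrpl40 held no gene that passed there.

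Genes with related roles were counted in the same way. Over all genes, 33.4% rose and 21.9% fell in mis4+, and 33.4% rose and 23% fell in mis4-367. Of 5 mitochondrial ribosomal protein genes under other symbols, bot1 of the small subunit rose by 0.48 in mis4+ and 0.58 in mis4-367 (limma, adjusted p = 2.03e-05 and 4.15e-06). In the same list cox24 was lower after the shift, with changes of -0.37 and -0.33 (adjusted p = 0.000174 and 0.000374), and img1, nam9 and rml2 did not pass. Among 8 translation and assembly factors, 3 rose in both strains, or 37.5%. They were fmt1, the methionyl-tRNA formyltransferase (0.75 and 0.76), mtg1, a GTPase of large-subunit assembly in budding yeast (0.58 and 0.60), and pth1, a peptidyl-tRNA hydrolase (0.44 and 0.52). In mis4+ oxa102, which inserts proteins into the inner membrane, fell (-0.22). Of 5 genes that charge or modify mitochondrial tRNAs 4 rose in both strains: msd1 and msw1, which encode the aspartyl- and tryptophanyl-tRNA synthetases (0.40 and 0.51 in mis4+, 0.62 and 0.38 in mis4-367), the tRNase gene trz2 (0.51 and 0.54) and mss1 (0.34 and 0.43).

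Of 16 genes of mitochondrial transcription, RNA processing and mRNA-specific translation, 4 rose and 6 fell in mis4+, and 4 rose and 7 fell in mis4-367. These are 25% and 37.5%, and 25% and 43.8%, beside 33.4% and 21.9%, and 33.4% and 23%, of all genes. The deepest falls were those of cbp3, which acts on cytochrome b in budding yeast (-0.71 in mis4+, -0.80 in mis4-367), and ppr8, a pentatricopeptide repeat gene (-0.82 and -0.75). At 37 °C ppr4 (-0.33), mss51 (-0.31) and ppr5 (-0.27) were lower in mis4-367 than in mis4+ (limma, adjusted p = 0.0407, 0.0428 and 0.0290) in the fit of all arrays, beside the 5.46% of all genes that were lower. Of this list 1 gene was lower without replicate 3 of mis4+, 6 without its replicate 2, and 0, 0 and 1 without replicates 1, 2 and 3 of mis4-367. A fit of the compared groups alone called 0.

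The proteins that mitochondrial translation supplies are assembled with nuclear-encoded partners. Of 35 nuclear genes of the respiratory chain and ATP synthase, 7 rose and 5 fell in mis4+ (median 0.03), and 7 rose and 6 fell in mis4-367 (median 0.05). Those with the largest changes were atp16 (0.37 in mis4+, 0.45 in mis4-367) and qcr1 (-0.34 and -0.46). Of 119 cytosolic ribosomal protein genes 5 rose and 19 fell in mis4+, and 4 rose and 13 fell in mis4-367, with medians of -0.03 and -0.04. The shares were 4.2% and 16%, and 3.36% and 10.9%, and those of the 35 genes 20% and 14.3%, and 20% and 17.1%. Over all genes 33.4% rose in each strain, and 21.9% fell in mis4+ and 23% in mis4-367. The absolute change had a median of 0.187 over the 47 mitochondrial ribosomal protein genes and 0.045 over the 119 cytosolic ones in mis4+, with 0.191 over all genes. Cytosolic ribosomal protein genes are bright on these arrays and many have near-identical copies, so their probe sets can read several genes; the comparison between the lists was not tested.

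**Figure D5:**
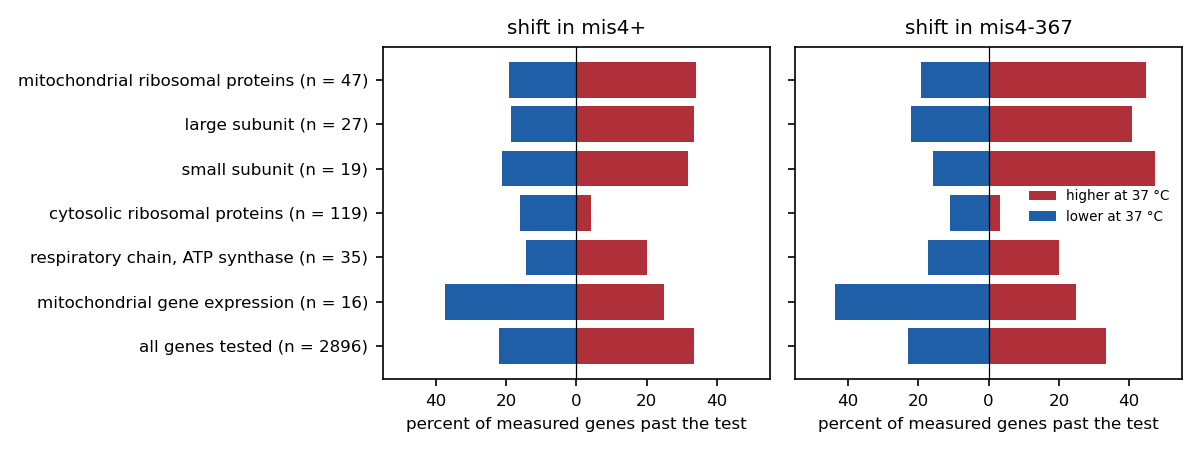
Percent of the measured genes of each list that passed the test as higher (red, to the right of 0) or lower (blue, to the left) at 37 °C against 25 °C, in each strain. Of the 47 mitochondrial ribosomal protein genes 34% were higher in mis4+ and 44.7% in mis4-367, beside 33.4% of all genes in each, and of the 119 cytosolic ones 4.2% and 3.36%.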

How the data were processed

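Biotin-labelled cRNA from 5 ug of total RNA per culture was hybridised to GeneChip arrays, per the labels' protocols. The authors deposited 1 intensity per probe set and array, on a linear scale reaching 12169; per the submitters' processing notes RMA was used, a method of background correction, joint quantile normalization and probe summary, so a shift of all mRNAs would be flattened. No version of it is named.

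Values were taken to log2 without a pseudocount. Of 10928 probe sets, 2914 had 1 S. pombe gene in the platform annotation, and the brightest per gene gave 2896 genes. The background level is the 95th percentile of 2601 probe sets named for another species. Group means were compared in 1 fit over 12 arrays (R 4.3.3, limma 3.58.1, lmFit and eBayes), adjusted by Benjamini-Hochberg over all 2896 genes. The fit was also run on simulated data, but no outcome is given here and no call rests on it. The fit takes 1 SD per gene for all groups, while the members spread more on arrays after the shift than before it. Between strains after the shift, a fit of the compared groups alone called no member. Cultures are independent per the series' design text. Arrays have no read depth; their number limits the precision, and the median SE of a difference was 0.065.

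The members and lists were chosen with earlier results of these data known. From the lists, dss1, par1, par2, mst1 and mto1 were removed after the annotation was seen, because these symbols name other genes in fission yeast. Values are given for up to 12 members per direction past the test in each comparison, for the 5 farthest from 0 where fewer than 5 passed, and for up to 3 per direction of other lists; further genes were named after their values were seen. Promoter motifs were not analysed here. Of the value columns, 0 were left over. Figures were drawn with matplotlib 3.10.9.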

Additional observations from a re-analysis of the deposited data

How the results depend on the processing

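Under the alternatives tried, none of 898 values of the named members changed direction, and 841 kept their side of the threshold. The named members were chosen for the largest changes in these same arrays, which makes a change of direction less likely. Several alternatives leave the change itself as it was, so its direction could not move there. These were the filter, the mean of all probe sets, the eBayes trend, the replicate blocks and the fit of the compared groups alone. Of the 21 named members called after the shift in mis4+, 16 kept their call in each alternative, and of the 21 in mis4-367, 20 did (all but rsm27). These 21 are the largest changes per direction among 25 members called in mis4+ and 30 in mis4-367. The weaker calls were not followed gene by gene. In mis4-367 the count that rose went from 21 to 18 after quantile normalization. Between strains at 37 °C none of the 4 called members kept its call in each alternative. There the members higher and lower were 5 and 0 after quantile normalization, 3 and 0 after re-centring, 2 and 0 with an intensity trend in eBayes, 0 and 0 in a fit of the compared groups alone, and 2 and 1 with rsm1 left out, which was chosen after seeing the data. Leaving out 1 array gave 0 to 2 higher and 0 to 7 lower. The median of the members after quantile normalization was 0.029 at 37 °C and 0.007 at 25 °C between strains, both above 0 where it had been below, and 0.058 for the shift in mis4-367. After re-centring it was 0.003 at 25 °C. For the shift in mis4+ 14 members fell after quantile normalization. The median difference of the responses ran from -0.046 to 0.037 with 1 array left out. The causes were not tested. Filters on dim probe sets, a pseudocount of 16 and the mean of all probe sets changed no count. The filter and the mean left the members' own values as they were, since each has 1 probe set and all lay above background.

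Same-numbered arrays did not deviate together throughout (r from -0.383 to 0.183). In mis4-367 each array at 37 °C correlated best with its own number at 25 °C, at r of 0.061 to 0.090, as a hint from the data only. With the replicate block by number 18 members rose and 9 fell in mis4-367, 16 and 8 in mis4+, and 2 were higher and 3 lower between strains at 37 °C; by culture the shift gave 19 and 9, and 16 and 9.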

Other observations

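Mitochondrial ribosomal proteins reach the organelle through the import machinery. Of 30 genes of mitochondrial import and folding, 6 rose and 12 fell after the shift in mis4+, and 7 rose and 10 fell in mis4-367. These are 20% and 40%, and 23.3% and 33.3%, beside 33.4% and 21.9%, and 33.4% and 23%, of all genes. The deepest fall was that of mas2, a subunit of the peptidase that removes targeting sequences, with changes of -0.68 ± 0.08 (SE, limma adjusted p = 1.82e-05) in mis4+ and -0.74 ± 0.08 (adjusted p = 7.42e-06) in mis4-367. Receptor and channel genes of the outer membrane also fell, tom70 with -0.37 and -0.42 and tom40 with -0.37 and -0.46. The chaperonin gene hsp10 rose by 0.51 in both strains (adjusted p = 5.85e-07 and 4.83e-07). At 37 °C 5 genes of this list were higher in mis4-367 than in mis4+ and 1 was lower, where 1.73% of all genes were higher and 5.46% lower. Without replicate 3 of mis4+ these counts were 3 and 1, and without its replicates 1 and 2 they were 4 and 0, and 5 and 4. Leaving out replicates 1, 2 and 3 of mis4-367 gave 7 and 0, 0 and 0, and 1 and 0. A fit of the compared groups alone called 0 of the 30, and quantile normalization gave 6 and 0. These counts were added after seeing the data. The higher ones were tim10 (0.49), tim9 (0.39), mge1, tim13 (0.31) and tim8 (0.22). For mge1, the exchange factor of mitochondrial Hsp70, the difference was 0.33 ± 0.06 (SE, limma adjusted p = 0.0172). After the shift mge1 fell in mis4+ and mis4-367 (-0.49 and -0.30), as did tim8 (-0.45 and -0.39), so higher does not mean a rise. In mis4+ tim10 (-0.43) and tim13 (-0.24) fell too, while tim9 rose in mis4-367 (0.445). The lower one was sam50 of the outer membrane, at -0.24 ± 0.06 (adjusted p = 0.0409).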
